A study of Saccharomyces cerevisiae with 12 samples.

Results

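The genes described here encode the cytosolic machinery that charges tRNAs and drives translation in budding yeast: 21 aminoacyl-tRNA synthetase genes, 20 initiation factor genes, 9 elongation factor genes, 2 release factor genes, and GCN1, GCN2, GCN20 and NEW1. The list is defined by systematic names, was drawn up with earlier results of these data known, and makes up 56 of the 6212 genes listed in the deposited table of log ratios. Transcript levels had been measured on 12 two-colour arrays, each of which compared treated with control cells of the same genotype. The 4 groups were snf1 at alkaline pH (4 arrays), wild type at alkaline pH (4 arrays), snf1 at low glucose (2 arrays) and wild type at low glucose (2 arrays).

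SNF1 encodes the yeast AMP-activated protein kinase, which is needed for growth when glucose runs short. The alkaline pH cultures were of strain DBY4741, either snf1::KanMX or wild type. They had grown at 28 °C in 50 ml of the rich medium YPD and were given 16 mM KOH, which raised the pH to about 8.0, or 16 mM KCl, which left it at about 5.5, for 10 min. The low glucose cultures were of strain DBY746, snf1 mutant or wild type. They were spun down, washed, and put for 15 min into YP medium with 0.05% glucose or, as the control, with 2% glucose. Replicate 1 of snf1 at alkaline pH carries the genotype snf11::KanMX in its label although its title names snf1. The SNF1 spot had a value on 1 snf1 array and on 1 wild type array, and a ratio of cells of the same genotype cannot check the deletion.

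An aminoacyl-tRNA synthetase joins each amino acid to its tRNA. Initiation factors bring the small ribosomal subunit, the initiator tRNA and the mRNA cap together, elongation factors deliver charged tRNAs and move the ribosome along, and release factors free the finished chain. Gcn2 is a kinase that senses uncharged tRNA with the help of Gcn1 and Gcn20, lowers initiation by phosphorylating eIF2, and so allows translation of the transcription factor Gcn4. In yeast these genes are transcribed strongly in fast growth and are counted among the genes whose transcripts fall in many stresses.

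Each value is a log2 ratio, treated over control, so that -1 is a 2-fold fall. Base 2 and the direction were inferred rather than stated, the base from the range of the values and the direction from the titles. The arrays with opposite dyes correlated positively in all 36 pairs, with a lowest r of 0.54. This shows only that the arrays run in the same direction, not which one. Group means are given with the SD over arrays, and differences with the SE from limma. A change was called where its p, adjusted by Benjamini-Hochberg over all genes tested in the limma fit, was under 0.05. An array gave values for 4056 to 5597 genes, with the lowest numbers on the snf1 arrays at low glucose. It covered 49 to 56 of the translation genes, and 47 had a value on all 12 arrays. A culture was measured as a whole, so fewer cells with a transcript and less of it per cell cannot be told apart.

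**Figure D1:**
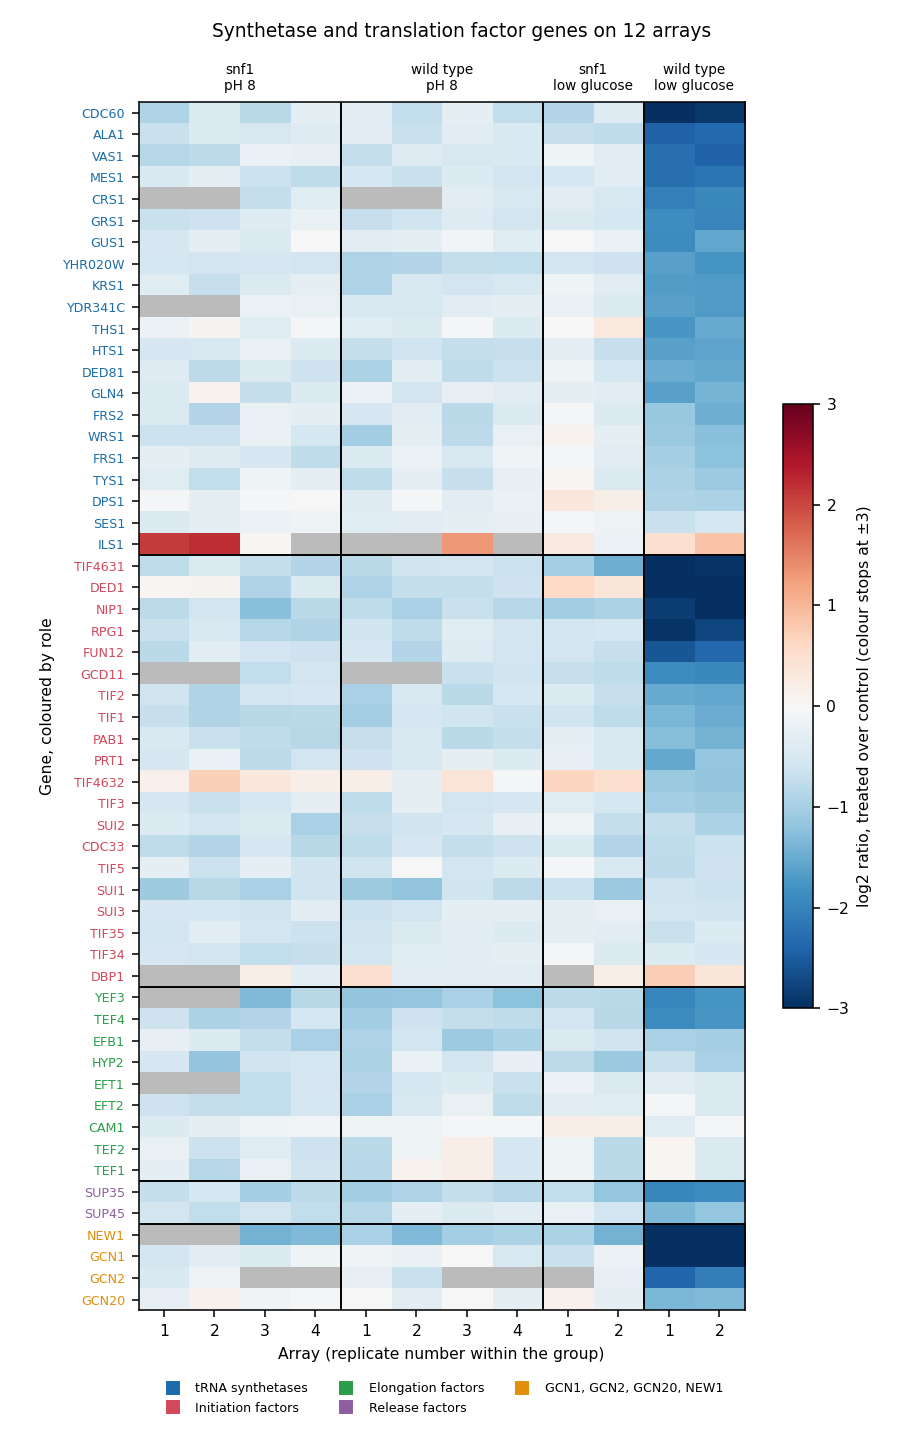
Log2 ratios of treated over control of the 56 genes on each of the 12 arrays, grouped by genotype and treatment across and by role down (gene names coloured by role; grey marks no value; the colour scale stops at 3 in each direction). The 2 arrays of wild type at low glucose are the darkest blue, with the lowest values in NEW1, GCN1, TIF4631 and DED1, while most genes are pale in snf1 at low glucose.

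In wild type cells moved to low glucose, transcripts of nearly the whole machinery fell, many of them several-fold. Of the 56 genes, 50 were called lower and 0 higher, against 31.5% and 33.7% of all 5225 genes tested (limma). With limma 1 gene, DBP1, was higher at an unadjusted p under 0.05. The median log2 ratio of the translation genes was -1.39, against 0.05 over all genes tested. A fall of at least 2-fold was seen in 38 of the 56, against 906 of the 5608 genes with a value. The same shift in snf1 was smaller: 25 of 54 genes were called lower and 1 higher, against 16.9% and 28.9% of the 3703 genes tested, and the median over the genes tested was -0.40 against 0.12. By role, the median in snf1 and in wild type was -0.25 and -1.64 for synthetases, -0.44 and -1.25 for initiation factors, and -0.46 and -0.38 for elongation factors. The elongation factor medians are less certain. They equal the means of TEF1 and TEF2 in snf1 and of EFT1 in wild type, genes whose values repeat in the deposited table, as described below.

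The difference between the genotypes was tested directly. At low glucose 39 of 54 genes were called higher in snf1 than in wild type and 0 lower, against 27.6% and 13.0% of all 3651 genes tested. The median difference was 1.08 on the log2 scale for these genes and 0.18 for all genes tested. The difference was at least 1 in 29 of these genes and at least 2 in 6, and all genes were not counted at these cuts. Of the 39, 35 had a mean below 0 in both genotypes; 21 of the 35 were called lower in snf1 and 14 were not called there, while all 35 were called lower in wild type. The other 4, DED1, TIF4632, THS1 and DPS1, had a mean above 0 in snf1 and below 0 in wild type.

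The genotypes also differed in the spread of all their values at low glucose. The SD over genes was 0.791 and 0.740 on the snf1 arrays and 1.13 and 1.17 on the wild type arrays. With every array scaled to the same spread, 14 of the 54 genes were still called higher in snf1, and they were all among the 39, against 9.86% of all genes. These 14 were ALA1, CDC60, DPS1, GUS1, KRS1, MES1, THS1, VAS1, DED1, FUN12, RPG1, TIF4632, GCN1 and NEW1.

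**Figure D2:**
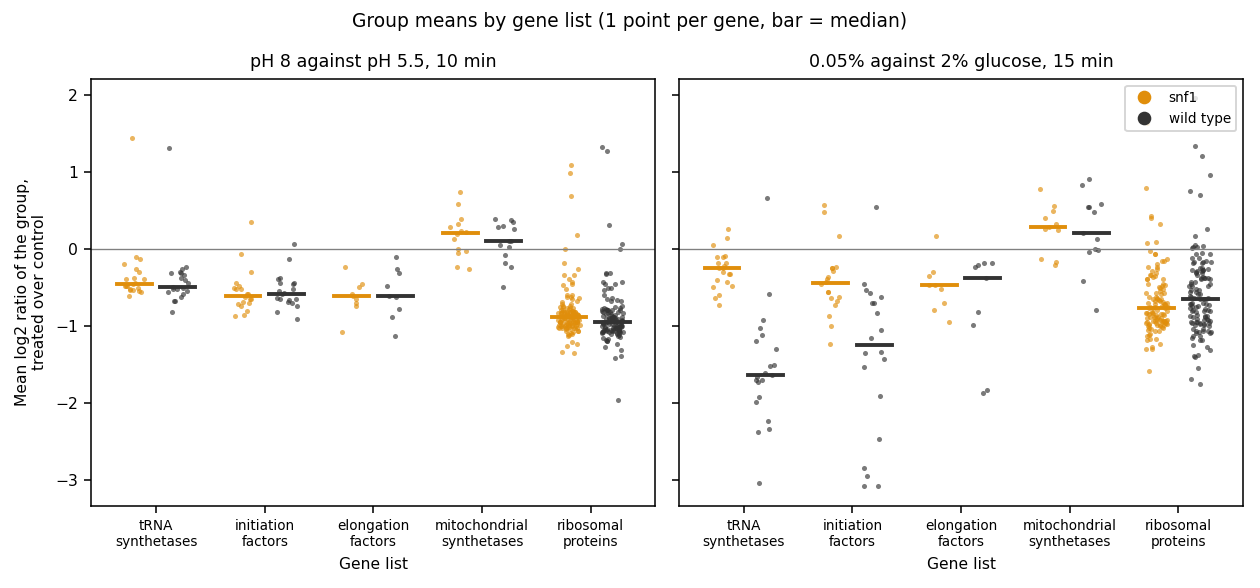
Mean log2 ratio of each gene (points) and median of each list (bars) in snf1 (orange) and wild type (black), at pH 8 on the left and at low glucose on the right; mitochondrial synthetases and ribosomal proteins are shown for comparison. At low glucose the medians of the cytosolic synthetases lie at -0.25 in snf1 and -1.64 in wild type, while those of the ribosomal protein genes lie at -0.77 and -0.65.

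Among synthetases at low glucose, 20 of 21 were called higher in snf1 than in wild type. Of these 21, 6 were called lower in snf1 (ALA1, CDC60, GRS1, HTS1, MES1 and YHR020W) and 20 in wild type. The leucine enzyme CDC60 (YPL160W) had values of -0.88 and -0.39 in snf1, against -3.18 and -2.89 in wild type, an 8.21-fold fall there. The valine enzyme VAS1 (YGR094W) had -0.13 and -0.35 in snf1, against -2.26 and -2.42 in wild type. The differences between genotypes (limma) were 2.40 ± 0.24 for CDC60 (adjusted p = 4.12e-05) and 2.10 ± 0.24 for VAS1 (adjusted p = 0.000101).

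The methionine enzyme MES1 (YGR264C) had values of -0.52 and -0.33 in snf1, against -2.27 and -2.18 in wild type. The alanine enzyme ALA1 (YOR335C) had -0.68 and -0.77 in snf1, against -2.43 and -2.33 in wild type. The threonine enzyme THS1 (YIL078W) had -0.019 and 0.295 in snf1, against -1.76 and -1.52 in wild type. The differences were 1.80 ± 0.18 for MES1, 1.655 ± 0.175 for ALA1 and 1.78 ± 0.20 for THS1, and all were called. The fall in wild type was not equal across the family: the mean ranged from -3.04 for CDC60 to -0.59 for the serine enzyme SES1 among the 20 called. The aspartate enzyme DPS1, at -0.93, and the tyrosine enzyme TYS1, at -1.02, were next to SES1 at the small end. Coding length bears on this order, being 3273 bases for CDC60 and 1389 for SES1. With the trend of coding length over all genes removed, the wild type means were -1.92 for CDC60 and -0.51 for SES1. DPS1 (-0.72), GLN4 (-0.82) and FRS1 (-0.84) were then next to SES1, and TYS1 was at -1.08.

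The smallest difference called was that of SES1, with -0.04 and -0.14 in snf1 against -0.66 and -0.52 in wild type, a difference of 0.50 ± 0.17 (adjusted p = 0.0354). It was lost in 10 of the alternative settings, leaving out any 1 of the 4 low glucose arrays among them. The synthetase outside the general pattern was ILS1, the isoleucine enzyme. It had 0.27 and -0.17 in snf1 and 0.47 and 0.86 in wild type, and neither group mean was called. The paired phenylalanine subunits FRS1 and FRS2 had wild type means of -1.12 and -1.29 and differences of 0.94 and 1.05. The call of the difference was also lost for PRT1 and TYS1 without snf1 or wild type replicate 1, for TIF1 without wild type replicate 1, and for TIF3 without any 1 of the 4 arrays.

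Initiation factors split by subunit. In wild type at low glucose 19 of 20 were called lower, and the difference between genotypes was called in 12 of 19, all higher in snf1. The largest difference of all the genes was that of DED1 (YOR204W), a DEAD-box helicase that opens the mRNA leader for scanning. DED1 had 0.60 and 0.37 in snf1, against -3.11 and -3.05 in wild type, so that its sign was opposite in the genotypes. The difference was 3.56 ± 0.28 (adjusted p = 1.5e-05). DBP1, a helicase closely related to DED1, had 0.17 on the 1 snf1 array with a value, and 0.73 and 0.36 in wild type (adjusted p = 0.055 for the wild type mean).

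The eIF4G scaffolds TIF4631 (YGR162W) and TIF4632 (YGL049C), which bridge the cap-binding protein and the poly(A)-binding protein, differed from each other in every group. TIF4631 had -1.01 and -1.46 in snf1, against -3.22 and -2.93 in wild type. TIF4632 had 0.64 and 0.49 in snf1, against -1.11 and -1.19 in wild type. On the same array TIF4631 minus TIF4632 was -1.66 and -1.95 in snf1 and -2.11 and -1.74 in wild type at low glucose, so the gap between the scaffolds was similar in the genotypes while both lay higher in snf1. The differences were 1.84 ± 0.22 for TIF4631 and 1.72 ± 0.22 for TIF4632 (adjusted p = 0.000107 and 0.000156). TIF4632 was the 1 gene called higher in snf1 at low glucose (0.57 ± 0.16, adjusted p = 0.0112), a call that was lost without snf1 replicate 1, and its call in wild type was lost with the trend of length removed (adjusted p = 0.074).

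Of the other parts of the cap-binding complex, the helicase genes TIF1 and TIF2 encode the same protein, eIF4A, and cross-hybridisation between them was not tested. TIF1 had -0.59 and -0.75 in snf1, against -1.37 and -1.48 in wild type. TIF2 had -0.42 and -0.70 in snf1, against -1.52 and -1.56 in wild type. The cap-binding protein eIF4E, CDC33, had -0.41 and -0.87 in snf1 and -0.76 and -0.64 in wild type, ranges that overlapped (difference 0.06 ± 0.20). With the trend of length removed the means of CDC33, a gene of 642 bases, were -0.615 in snf1 and -1.05 in wild type. The poly(A)-binding protein gene PAB1 differed by 0.96 ± 0.18.

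Within eIF3, the complex that holds the small subunit ready for the mRNA, the subunits fell unequally in wild type. The large subunit gene RPG1 (YBR079C) had -0.57 and -0.54 in snf1, against -2.93 and -2.75 in wild type. NIP1 (YMR309C), another large subunit, had -1.04 and -0.95 in snf1, against -2.847 and -3.035 in wild type. PRT1 averaged -0.36 in snf1 and -1.34 in wild type. The smaller subunits moved least: TIF34 averaged -0.24 in snf1 and -0.46 in wild type, and TIF35 -0.29 and -0.53, with no difference called between genotypes. Coding length ran largely alongside: it was 825 bases for TIF35, 1044 for TIF34, 2292 for PRT1, 2439 for NIP1 and 2895 for RPG1. With the trend of length over all genes removed, the wild type means were -0.81, -0.61, -0.74, -2.25 and -1.90 in that order, so NIP1 and RPG1 still lay lowest.

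The subunits of eIF2, which carries the initiator tRNA, showed a like split. GCD11, the gamma subunit, had -0.68 and -0.77 in snf1, against -1.88 and -1.94 in wild type (difference 1.18 ± 0.19, adjusted p = 0.00185). The alpha and beta subunit genes SUI2 and SUI3 had wild type means of -0.83 and -0.57 and differences of 0.41 ± 0.25 and 0.34 ± 0.18, neither called. Here too length ran alongside, at 1584 bases for GCD11, 915 for SUI2 and 858 for SUI3. With the trend of length removed, the wild type means were -1.74, -1.06 and -0.83 in that order, against -0.755, -0.46 and -0.25 in snf1. The split between the subunits was then narrower. FUN12 (YAL035W), the subunit-joining factor eIF5B, had -0.56 and -0.69 in snf1, against -2.57 and -2.36 in wild type. SUI1, the start codon selection factor eIF1, had -0.639 and -1.105 in snf1 and -0.606 and -0.633 in wild type, values that were as low in snf1 as in wild type. SUI1 is a short gene, of 327 bases, and with the trend of length removed its means were -0.82 in snf1 and -1.095 in wild type.

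Among elongation factors the difference between genotypes was called in 2 of 9, both higher in snf1. That share is no larger than the 27.6% of all genes called higher (13.0% were called lower). In snf1 4 of 9 were called lower and 0 higher, against 16.9% and 28.9% of all genes. In wild type 5 of 9 were called lower and 0 higher, against 31.5% and 33.7%. YEF3 (YLR249W), the fungal factor eEF3, had -0.78 and -0.81 in snf1, against -1.96 and -1.77 in wild type (difference 1.07 ± 0.21, adjusted p = 0.00301). YEF3 has 3135 bases. With the trend of length removed its means were -0.62 in snf1 and -0.81 in wild type, and the call was lost. TEF4, a gamma subunit of the eEF1 exchange factor, differed by 1.13 ± 0.19 (adjusted p = 0.000787). CAM1, the other gamma subunit gene, had 0.175 and 0.166 in snf1 and -0.37 and -0.04 in wild type, which was not called. HYP2, which encodes eIF5A, had -0.78 and -1.12 in snf1 and -0.67 and -0.97 in wild type, overlapping ranges. With the trend of length removed the means of HYP2, a gene of 474 bases, were -0.915 in snf1 and -1.24 in wild type.

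The genes of eEF1A and eEF2, among the most abundant proteins of the cell, had means between -0.46 and -0.18 in both genotypes. TEF1 and TEF2, which encode identical eEF1A proteins, both had -0.125 and -0.798 in snf1 and 0.07 and -0.42 in wild type. The deposited values of TEF1 and TEF2 were identical on 6 of 12 arrays, so that they cannot be read as separate measurements. The identity is not particular to the pair: on those arrays 2 to 49 other entries of the table, the partner included, held the value of TEF1, and -0.125 and 0.068 were the commonest values of their arrays, with 24 entries each. On wild type arrays 3 and 4 at pH 8 the values of the 56 genes are given to 2 decimals, fewer than on the other arrays. There 0.19, the value of TEF1 and TEF2 on array 3, was the commonest of its array, with 50 entries. Why values repeat was not tested, and the levels of these genes are uncertain to that extent. EFT1, one of the paired eEF2 genes, had -0.17 and -0.44 in snf1 and -0.335 and -0.423 in wild type. EFT2 had -0.34 and -0.37 in snf1 and -0.04 and -0.42 in wild type. On wild type array 2 all 4 of these genes shared the value -0.42. EFT1 alone of the 4 was called lower in wild type (adjusted p = 0.0431), and that call was lost in 9 alternative settings.

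Both release factor genes were called. SUP35 (YDR172W), the GTPase eRF3, had -0.75 and -1.16 in snf1, against -1.95 and -1.88 in wild type (difference 0.96 ± 0.21, adjusted p = 0.00373). SUP45, the stop codon reader eRF1, averaged -0.40 in snf1 and -1.25 in wild type (difference 0.85 ± 0.21, adjusted p = 0.00726). Neither difference was called without snf1 replicate 1 at low glucose, and that of SUP45 also not without wild type replicate 1. The difference of SUP35 was also not called with the trend of length removed.

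Large falls in wild type were also seen in the genes of the Gcn2 sensor. GCN1 (YGL195W) had -0.67 and -0.17 in snf1, against -4.01 and -3.37 in wild type, a 12.9-fold fall there (difference 3.27 ± 0.23, adjusted p = 1.05e-05). GCN20 had 0.13 and -0.30 in snf1, against -1.36 and -1.33 in wild type (difference 1.26 ± 0.21). The kinase gene GCN2 had -0.26 on the 1 snf1 array with a value, against -2.38 and -2.08 in wild type, and its difference was not tested. GCN1 is the longest of these genes, at 8019 bases, and with the trend of length removed the wild type means were -1.34 for GCN1, -0.52 for GCN2 and -0.77 for GCN20, and the differences 1.503 for GCN1 and 0.72 for GCN20, both still called. NEW1 (YPL226W), an ATP-binding protein related to eEF3 that acts in translation termination, had -0.96 and -1.43 in snf1, against -3.70 and -3.97 in wild type, a 14.2-fold fall and the largest of the 56. Its difference was 2.64 ± 0.22 (adjusted p = 3.68e-05). With the trend of length removed its wild type mean was -2.58, and DED1 was lowest at -2.78.

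**Figure D3:**
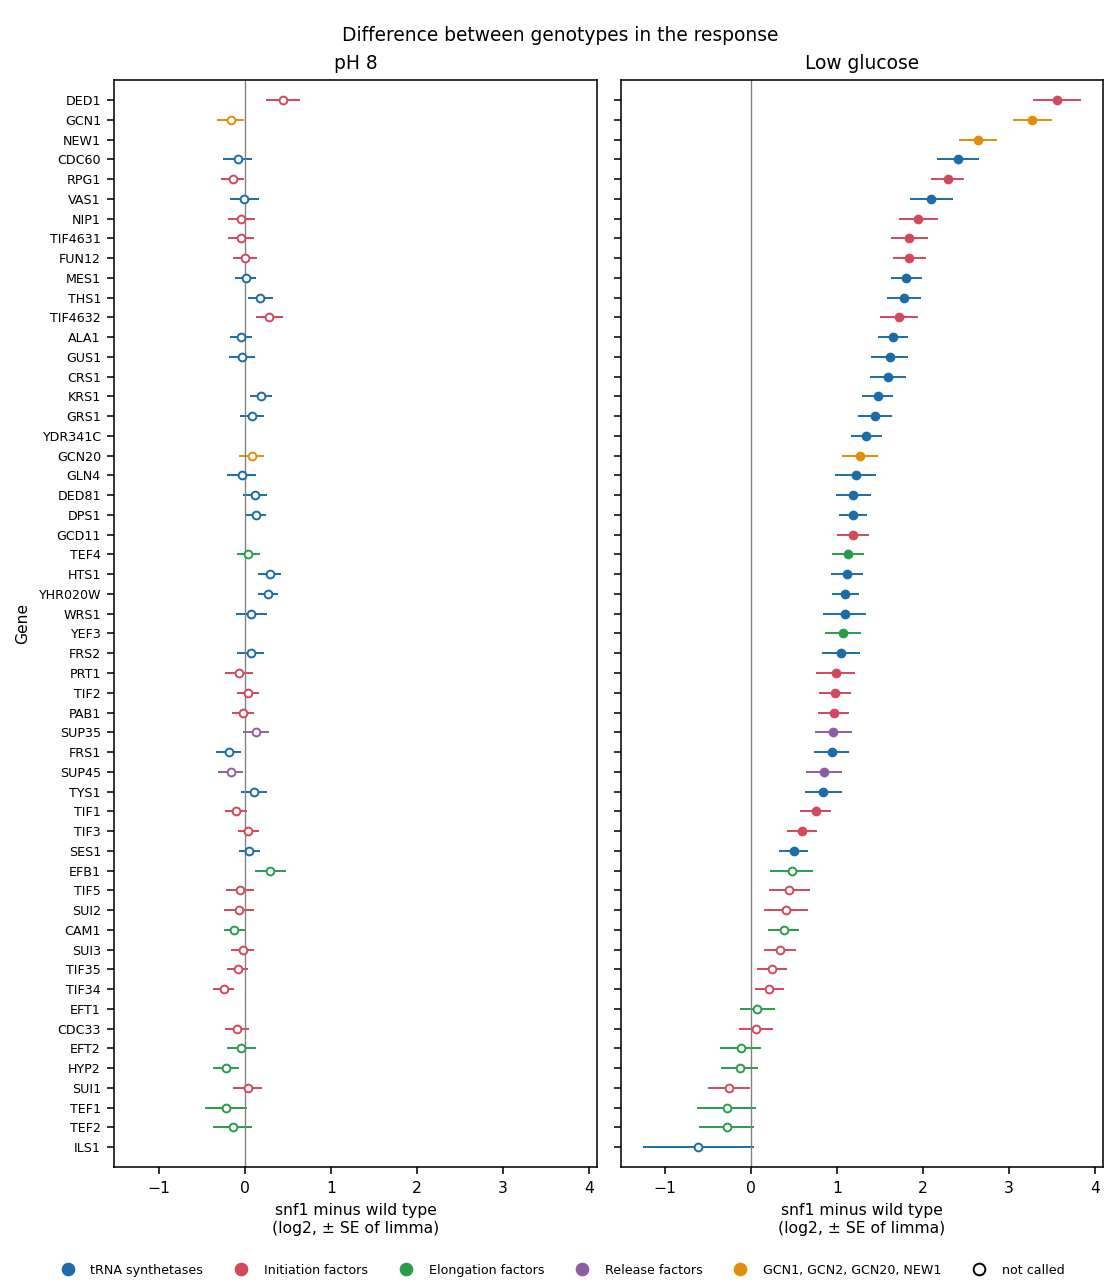
Difference in log2 ratio, snf1 minus wild type, for each gene tested at low glucose (rows, ordered by that difference), at pH 8 on the left and at low glucose on the right; bars are SEs from limma, filled points are called and open points are not, and colours mark the role. At pH 8 all points are open and lie between -0.24 and 0.44, while at low glucose 39 filled points lie between 0.50 and 3.56.

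In snf1 the falls at low glucose were led partly by other genes. The 8 largest falls among genes with the same sign on both arrays were those of TIF4631 (-1.24), NEW1 (-1.19), NIP1 (-0.99), HYP2 (-0.95), SUP35 (-0.95), SUI1 (-0.87), YEF3 (-0.79) and GCD11 (-0.73). HYP2 and SUI1, which are short genes, stood among them although they were not among the large falls of wild type. With the trend of length removed their wild type means were -1.24 and -1.095. The number of genes called lower in snf1, 25 with all arrays, was 14 without snf1 replicate 1 and 11 without snf1 replicate 2, and 23 to 26 with any other array left out. The call of GCN1 in snf1 (-0.42) was lost in 12 alternative settings and that of SUP45 in 11. In wild type the calls of SUI1 and TIF34 were lost without either low glucose array, and those of TIF35 and TIF5 without replicate 1. The median of the translation genes was -0.27 on snf1 array 1 and -0.47 on snf1 array 2, a gap wider than that between the wild type arrays, at -1.43 and -1.44.

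Coding length ran with the response in wild type at low glucose. Across 5151 genes the mean log2 ratio correlated with log2 coding length with r = -0.41 (rho -0.44) in wild type, and with r = -0.05 in snf1 across 4244 genes. Genes are not independent replicates, and these values are a description. Across the 56 translation genes r was 0.05 in snf1 and -0.56 in wild type. The translation genes are longer than most, with a median coding length of 1801.5 bases against 1227 over all genes with a value in wild type.

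At matched length the translation genes still lay below the rest. In the longest of 4 length classes, the median was -1.93 for 25 translation genes in wild type at low glucose, against -0.68 for all 1286 genes. In the shortest class, where 3 translation genes fall, it was -0.70 against 0.44. In length classes 2 and 3 it was -0.83 and -1.25, against 0.28 and -0.04. With the trend of length removed from every array, 48 of 56 translation genes were called lower in wild type, against 27.2% of all genes, and the median was -1.16. The difference between genotypes was then called in either direction for 38 of 54 genes, against 34% of all genes. It was called higher in snf1 for 37 of the 54, against 21.4%, and for 19 of the 21 synthetases, so the calls no longer all ran 1 way. PRT1, SUP35, YEF3 and SES1 lost their call. Of the 39 differences called, 16 became smaller by over 1.5 times, those of CDC60 (1.48), VAS1 (1.16), TIF4631 (1.05) and FUN12 (1.00) among them, while DED1 stayed the largest at 3.25. Of the 50 falls called in wild type, 11 became smaller by over 1.5 times and 4, those of CDC33, SUI1, TIF35 and HYP2, larger. What makes long genes differ in this group was not tested.

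**Figure D4:**
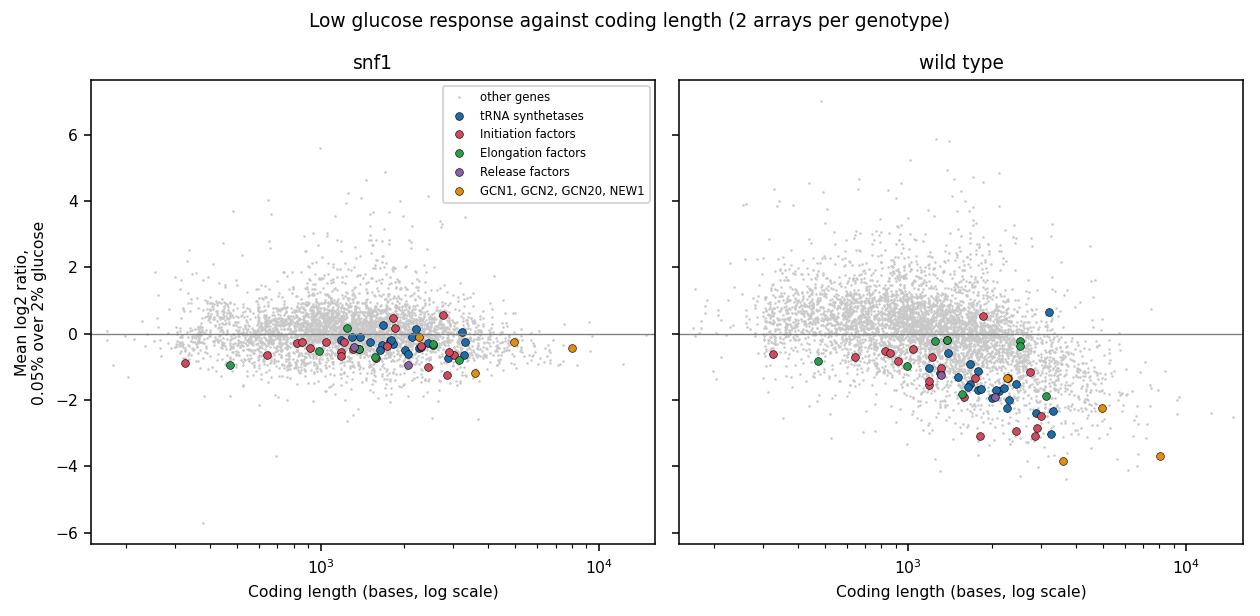
Mean log2 ratio at 0.05% over 2% glucose against coding length (log axis) in snf1 on the left and wild type on the right, with the translation genes coloured by role and other genes in grey. In wild type the cloud slopes down with length (r = -0.41 over all genes) and the translation genes have the lower median in each of 4 length classes, while in snf1 the cloud is flat (r = -0.05).

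At alkaline pH most of the same genes fell as well, in snf1 and in wild type, and no difference between the genotypes was called. In snf1 41 of 48 genes tested were called lower and 2 higher, against 26.2% and 21.7% of all 4591 genes. In wild type 44 of 52 were called lower and 0 higher, against 30.0% and 25.6% of 4979 genes. With limma no gene was higher in wild type at an unadjusted p under 0.05 either (0 of 52). The median over the genes tested was -0.51 in snf1 and -0.52 in wild type, against -0.037 and -0.045 over all genes tested.

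The genotype difference at pH 8 was called in 0 of 47 genes tested, against 0.753% of all 4380 genes called lower and 0.411% called higher in snf1. With limma 3 of the 47 had an unadjusted p under 0.05. The differences ran from -0.24 to 0.44 with SEs of up to 0.24, and the lowest adjusted p was 0.261. Differences well below 1 on the log2 scale in single genes therefore could not be told from the spread between arrays, and a missing call does not show that the genotypes respond alike.

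The factors that fell furthest at pH 8 came from elongation, initiation and release, and 1 of the 8 largest falls in wild type was that of a synthetase gene, YHR020W. YEF3 had -1.315 and -0.834 on the 2 snf1 arrays with a value, and values from -1.22 to -0.97 in wild type, a 2.19-fold mean fall there (adjusted p = 1.51e-05). NEW1 had -1.42 and -1.33 on 2 snf1 arrays, too few to test, and -0.98, -1.33, -1.02 and -0.94 in wild type. The ranges of the genotypes overlapped in YEF3, while the higher snf1 value of NEW1 (-1.334) was about equal to its lowest wild type value (-1.332).

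SUI1 had -1.08, -0.83, -0.97 and -0.605 in snf1, and -1.06, -1.18, -0.59 and -0.79 in wild type. SUP35 had -0.705, -0.53, -1.004 and -0.78 in snf1, and -1.05, -0.93, -0.71 and -0.85 in wild type. NIP1 had -0.78, -0.58, -1.26 and -0.80 in snf1, and -0.75, -0.98, -0.67 and -0.85 in wild type. All 8 arrays were below 0 in each of these genes, and the genotypes overlapped.

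TEF4 had -0.62, -0.94, -0.88 and -0.52 in snf1, and -1.03, -0.63, -0.71 and -0.76 in wild type. EFB1, the catalytic subunit of the eEF1 exchange factor, had -0.24, -0.41, -0.72 and -0.97 in snf1, and -0.93, -0.555, -1.10 and -0.95 in wild type. The proline synthetase gene YHR020W had -0.52, -0.58, -0.505 and -0.57 in snf1, and -0.93, -0.87, -0.72 and -0.74 in wild type. For YHR020W the 4 snf1 values all lay above the 4 wild type values, by a mean of 0.27 ± 0.11, which missed the threshold over all genes (adjusted p = 0.261).

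Among the genes tested in snf1, which leaves out NEW1 and YEF3, the 8 largest falls at pH 8 with the same sign on every array included TIF1, CDC33, RPG1 and HYP2 beside SUI1, NIP1, SUP35 and TEF4. TIF1 had -0.70, -0.90, -0.83 and -0.805 in snf1, and -1.03, -0.51, -0.59 and -0.67 in wild type. CDC33 had -0.75, -0.88, -0.51 and -0.83 in snf1, and -0.77, -0.51, -0.72 and -0.62 in wild type. These are both parts of the cap-binding complex, and their arrays overlapped between genotypes.

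RPG1 had -0.665, -0.45, -0.85 and -0.90 in snf1, and -0.59, -0.77, -0.37 and -0.56 in wild type. HYP2 had -0.515, -1.18, -0.59 and -0.53 in snf1, and -0.945, -0.19, -0.55 and -0.25 in wild type. TIF1 and TIF2 were never identical, with a largest gap of 0.295 between them over 12 arrays. At pH 8 the elongation gene pairs were called as follows: TEF1 and TEF2 in snf1 only (adjusted p = 0.0344 and 0.0308, both lost without snf1 replicate 1, 2 or 4), EFT2 in both genotypes and EFT1 in wild type, its snf1 mean resting on 2 arrays. The difference between genotypes was not called in TEF1, TEF2 or EFT2.

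By role, 16 of 19 synthetases tested were called lower in snf1 and 18 of 19 in wild type. Of the initiation factors, 16 of 18 were lower in snf1 and 17 of 19 in wild type. Of the elongation factors, 6 of 7 were lower in snf1 and 6 of 9 in wild type. GCN1 had -0.565, -0.31, -0.42 and -0.12 in snf1 (adjusted p = 0.0216), and -0.10, -0.19, 0.00 and -0.47 in wild type, where it was not called. GCN20 was not called in either genotype, with means of -0.07 in snf1 and -0.14 in wild type, and GCN2 had values on 2 arrays of each genotype and was not tested. With the trend of length removed, the snf1 mean of GCN1 was -0.05 and its call was lost (adjusted p = 0.755). Some calls of small falls rested on single arrays: leaving out at least 1 of the 4 arrays of the group ended the call of GLN4, GUS1, SES1, TYS1, TIF5 or GCN1 in snf1, and of DPS1, FRS1, GLN4, THS1 or TIF5 in wild type.

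The 2 genes called higher in snf1 at pH 8 were TIF4632 and ILS1. TIF4632 had 0.15, 0.71, 0.32 and 0.20 in snf1 (adjusted p = 0.0221), and 0.17, -0.28, 0.38 and -0.03 in wild type. ILS1 had 2.09, 2.21 and 0.03 on 3 snf1 arrays (adjusted p = 0.0131) and 1.31 on the 1 wild type array with a value. The call of TIF4632 was lost without snf1 replicate 2, and that of ILS1 without snf1 replicate 1 or 2. DED1 had 0.05, 0.08, -0.895 and -0.43 in snf1, which was not called, and -0.92, -0.72, -0.71 and -0.61 in wild type, which was (adjusted p = 0.000885).

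In DED1, snf1 arrays 1 and 2 stood apart from arrays 3 and 4, and in ILS1 from array 3, array 4 having no value there. On snf1 arrays 1 and 2, 7 of the 56 genes, CRS1, YDR341C, GCD11, DBP1, YEF3, EFT1 and NEW1, had no value. The split was not limited to these genes. Over 2980 genes, deviations from the group mean and dye term correlated in snf1 with r = 0.675 for arrays 1 and 2 and 0.252 for arrays 3 and 4. Between those pairs r was -0.832 to -0.615. In wild type at pH 8 the values were 0.162, 0.505 and -0.715 to -0.591. Deviations from a shared mean lean negative by construction. The main fit counts the 4 arrays as separate replicates. What separates these arrays was not tested.

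Between the treatments, the translation genes were higher at pH 8 than at low glucose in wild type, that is, they had fallen less. In wild type 36 of 52 were called higher and 0 lower, against 20.9% and 24.3% of 4825 genes, with a median difference of 0.83 against -0.14 over all genes tested. In snf1, 0 of 48 were called higher and 1 lower, against 3.34% and 13.8% of 3290 genes, with a median difference of -0.145 against -0.14. With limma, the 1 gene was DED1 (-0.78 ± 0.24, adjusted p = 0.0457), a call lost in 13 of 19 alternative settings. The largest differences in wild type were those of GCN1 (3.50 ± 0.19), NEW1 (2.77 ± 0.19), CDC60 (2.52 ± 0.21), TIF4631 (2.42 ± 0.19) and DED1 (2.34 ± 0.24). With the trend of length removed these were 1.285 for GCN1, 1.57 for NEW1, 1.44 for CDC60, 1.53 for TIF4631 and 2.03 for DED1, which was then the largest. Strain, exposure time and the wash before low glucose differ between the treatments too and cannot be told apart from them.

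Of the 47 genes tested in all 4 groups, 21 were called lower in each, against 12.2% of the 3231 genes tested in all 4. They comprised 6 synthetases, 10 initiation factors, 3 elongation factors (EFB1, TEF4 and HYP2) and both release factors. Among the initiation factors were the large eIF3 subunits NIP1 and RPG1, eIF4A (TIF1 and TIF2), CDC33, PAB1 and SUI1.

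Genes of the same process outside the 56 gave a frame for these values. Cytosolic ribosomal protein genes had medians of -0.77 in snf1 and -0.65 in wild type at low glucose, and 12 of 116 were called between genotypes, 3 higher and 9 lower in snf1, against 27.6% and 13.0% of all genes. With the trend of length removed these counts were 18 higher and 1 lower. This list was drawn by gene symbol, and its 130 entries include RPP1, which is not a ribosomal protein gene (0.33 in snf1 and 0.965 in wild type at low glucose). The exchange factor eIF2B and its neighbours in initiation had 5 of 9 genes called higher in snf1 than in wild type at low glucose and 0 lower, against the same 27.6% and 13.0%. RLI1, a ribosome recycling factor, averaged -1.18 in snf1 and -2.51 in wild type, and GCD2, an eIF2B subunit, -0.57 and -2.16. Of 8 tested Gcn2 pathway and other cytosolic translation genes, 5 were called higher in snf1 than in wild type and 0 lower. None of these counts was tested against those of all genes. GCN4 averaged -0.17 in snf1 and -1.17 in wild type, a difference of 0.99 (adjusted p = 0.00156). The array measures its transcript, whereas Gcn4 is known to be set mainly by translation.

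Mitochondrial synthetases charge tRNAs inside the organelle. In snf1 at low glucose 3 of 7 were called higher and 0 lower, against 28.9% and 16.9% of all genes, and in wild type 6 of 13 higher and 2 lower, against 33.7% and 31.5%. The medians over those with a value were 0.29 in snf1 and 0.21 in wild type. MSW1, the tryptophan enzyme of mitochondria, averaged 0.33 in snf1 and 0.83 in wild type, whereas its cytosolic counterpart WRS1 averaged -0.10 and -1.19. MSF1, the phenylalanine enzyme of mitochondria, averaged 0.90 in wild type, and ISM1 and DIA4, the isoleucine and serine enzymes, were called lower there, at -0.79 and -0.41. At pH 8, 3 of 11 mitochondrial synthetases were called higher and 0 lower in snf1, against 21.7% and 26.2% of all genes, and in wild type 4 of 13 higher and 1 lower, against 25.6% and 30.0%.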

How the data were processed

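The authors deposited log ratios of 12 two-colour arrays, taken here as log2 of treated over control: the largest, 7.475, would exceed the scanner's range as a natural log. Per the labels, cDNA was primed with oligo(dT) from 8 µg of total RNA and spots under 120 µm or 100 units were left out; of the normalization nothing is stated in the sources used. The direction is likely, from the titles, and the positive correlation of opposite dyes shows only that it is the same on all arrays. Nothing says that arrays came from separate cultures, so p-values measure the spread between arrays.

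All genes were fitted in limma 3.58.1 (R 4.3.3) with 4 group means and, for each gene, a dye term, on genes with values on 3 of 4 (pH) or 2 of 2 (glucose) arrays. Two-sided p-values were adjusted by Benjamini-Hochberg over all genes tested. Groups of 2 arrays borrow their spread from all arrays. Coding lengths (introns included) came from RefSeq R64.

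The genes and lists were chosen with earlier results of these data known. Values on every array are given for the 8 largest called changes with 1 sign in each group, the 10 largest of each difference, the Gcn2 genes and the gene pairs; others of the 56 were added after their values were seen. Outside the 56, up to 4 called genes per list and GCN4 were named by rule. Alternatives were no dye term, arrays scaled to the same spread, the length trend removed, other minimum numbers of values, only the arrays compared, consecutive arrays averaged, a replicate block, and each array left out. Sequences were not used here.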

Additional observations from a re-analysis of the deposited data

Results flagged for a closer look

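For 39 of the 54 genes tested, the response to low glucose differed between the genotypes by a test of the difference itself (limma, snf1 minus wild type, log2). Among synthetases the differences were 2.40 for CDC60, 2.10 for VAS1, 1.80 for MES1, 1.78 for THS1, 1.66 for ALA1, 1.61 for GUS1, 1.59 for CRS1, 1.47 for KRS1, 1.45 for GRS1 and 1.34 for YDR341C. Smaller ones were 1.22 for GLN4, 1.19 for DED81, 1.18 for DPS1, 1.11 for HTS1, 1.10 for YHR020W, 1.09 for WRS1, 1.05 for FRS2, 0.94 for FRS1, 0.84 for TYS1 and 0.50 for SES1. Among initiation factors they were 3.56 for DED1, 2.29 for RPG1, 1.95 for NIP1, 1.84 for FUN12, 1.84 for TIF4631, 1.72 for TIF4632, 1.18 for GCD11, 0.98 for PRT1, 0.98 for TIF2, 0.96 for PAB1, 0.75 for TIF1 and 0.59 for TIF3. The elongation factors TEF4 and YEF3 differed by 1.13 and 1.07, and the release factors SUP35 and SUP45 by 0.96 and 0.85. GCN1 differed by 3.27, NEW1 by 2.64 and GCN20 by 1.26.

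In 99 groups of 4 arrays tested for a single array far from the others, 3 were found, and chance gives about 1 in 20. THS1 in wild type at pH 8 was -0.04 on replicate 3, against -0.42 to -0.37 on the other arrays. DBP1 in wild type at pH 8 was 0.476 on replicate 1, against -0.332 to -0.32. HYP2 in snf1 at pH 8 was -1.181 on replicate 2, against -0.589 to -0.515.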

How the results depend on the processing

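Of the calls reported, 9 of 26 in snf1 and 43 of 50 in wild type at low glucose, 28 of 43 in snf1 and 34 of 44 in wild type at pH 8, 14 of 39 for the genotype difference at low glucose, and 16 of 36 for pH 8 minus low glucose in wild type were made under every setting run. With arrays scaled to the same spread, 14 genotype differences at low glucose, 0 treatment differences in snf1 and 17 in wild type were called, and the medians were -0.554 in snf1 at pH 8 and -0.916 in wild type at low glucose. With the length trend removed, 3 genes were called higher in wild type at low glucose and the median was -1.164. Under it EFT1 in wild type was 0.368 (adjusted p = 0.0524 with limma), GCN1 in snf1 0.164 (adjusted p = 0.456), and YEF3 for pH 8 minus low glucose in wild type -0.283 (adjusted p = 0.238), signs opposite to those reported. With consecutive arrays averaged, in case they are dye swaps of the same RNA, 12 genes were lower and 0 higher in snf1 at low glucose, 0 higher in snf1 at pH 8, and 0 differed between treatments in snf1. Under this averaging 34 of 52 genes were lower in wild type at pH 8, against 20.5% of all genes. In snf1 at pH 8, 31 of 47 were lower, against 17.6%. Each low glucose group then held 1 averaged value. Fewer genotype differences at low glucose and fewer treatment differences in wild type were called than in the main fit. With values needed on every array, 1 gene was higher in snf1 at pH 8. With only the arrays compared, 1 was, and 0 differed between treatments in snf1. That setting could not be fitted for single low glucose groups, which leave no residual degrees of freedom. The causes were not tested.

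Leaving out each array in turn gave 38 to 41 genes lower and 0 to 2 higher in snf1 at pH 8, 40 to 45 lower and 0 to 0 higher in wild type at pH 8, 11 to 26 lower and 0 to 2 higher in snf1 at low glucose, and 45 to 50 lower and 0 to 1 higher in wild type at low glucose. It gave 0 to 0 genotype differences at pH 8 and 33 to 39 at low glucose, and 0 to 2 treatment differences in snf1 and 27 to 39 in wild type. The medians ran from -0.520 to -0.508 in snf1 and from -0.550 to -0.474 in wild type at pH 8, and from -0.466 to -0.270 in snf1 and from -1.438 to -1.432 in wild type at low glucose.

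The replicate numbers did not pair the arrays: same-numbered arrays correlated in their deviations with r of 0.119, -0.134, -0.065 and 0.082 at pH 8 and -0.083 at low glucose. With the replicate block 0 of 47 genotype differences were called at pH 8 and 38 of 54 at low glucose. Background correction and a filter on dim spots could not be varied, since signals over background were not used here.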

Other observations

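Some further values concern pairs of related genes and factors outside the main lists. ANB1, the second eIF5A gene, averaged -0.95 in snf1 and -0.61 in wild type at low glucose, beside HYP2 at -0.95 and -0.82. ANB1 and HYP2 were never identical over 12 arrays, with a largest gap of 0.222. RBG1 and RBG2, which encode ribosome-interacting GTPases, were called lower in all 4 groups. RBG1 averaged -1.09 in snf1 and -1.11 in wild type at pH 8, and -0.84 in snf1 and -1.78 in wild type at low glucose. RBG2 averaged -0.81 in snf1 and -0.76 in wild type at pH 8, and -1.02 in snf1 and -1.81 in wild type at low glucose. ARC1, a cofactor of the methionine and glutamate synthetases, differed by 0.79 at low glucose (adjusted p = 0.00554), beside 1.80 for MES1 and 1.61 for GUS1. HBS1, which rescues stalled ribosomes, had means of 0.39 in snf1 and -0.85 in wild type at low glucose. MRF1, the mitochondrial release factor, ran the other way, with means of 0.17 in snf1 and 0.83 in wild type (difference -0.66, adjusted p = 0.0373).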
